A study of Homo sapiens with 8 samples.

Results

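The 10 genes described here encode proteins of the neuronal cytoskeleton and of neurite growth. They were chosen by symbol from the 60659 genes of the count table, with earlier results of these data known. Shares of all genes tested are therefore set beside their counts as a description only. They are the neurofilament genes NEFL, NEFM and NEFH, the related filament genes INA and PRPH, the microtubule regulators DCX, STMN2, STMN4 and MAP2, and the growth cone gene GAP43. The cells were SK-N-SH, an established human neuroblastoma line that can be driven towards a neuron-like state by all-trans retinoic acid (ATRA). The study asked how the amount of the chromatin reader ZMYND8 changes gene expression while the cells respond to ATRA. All 8 libraries came from cells kept in differentiation medium with 10 µM ATRA for 24 h, and no library without ATRA was analysed here.

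There were 4 groups of 2 biological replicates. Parental SK-N-SH cells were given ATRA and doxycycline (Dox). The ZMYND8 overexpression group was FLAG-tagged ZMYND8 cells given ATRA and Dox. In the study's methods, ZMYND8 was carried by a Dox-inducible lentiviral vector and stable cells were selected with an antibiotic, so the parental cells lack both the vector and the selection. The KD control and ZMYND8 knockdown groups were given ATRA, and their labels name no Dox. How the knockdown was made in this line is not given in the sources used here. The ZMYND8 overexpression and parental libraries are called the overexpression experiment below, and the other libraries the knockdown experiment. The labels do not say whether the 4 groups were cultured and sequenced together.

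Neurofilaments are the intermediate filaments of neurons. Light (NEFL), medium (NEFM) and heavy (NEFH) chains assemble with alpha-internexin (INA) or, mostly in peripheral neurons, with peripherin (PRPH), and they give axons calibre and mechanical strength. Microtubule regulators set how the tracks of a growing neurite are built. Doublecortin (DCX) and MAP2 bind and stabilise microtubules, whereas stathmins such as STMN2 and STMN4 bind free tubulin and promote disassembly in growth cones. GAP43 is a membrane phosphoprotein of the growth cone and a classical mark of axon growth.

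Each library held between 38316523 and 56256979 counts assigned to genes. ZMYND8 itself stood at 9.16 to 9.53 RPKM (reads scaled to exon length and library size) in the parental libraries and 538 to 545 in the overexpression libraries. It stood at 7.80 to 7.99 RPKM in the KD control libraries and 4.11 to 4.13 in the knockdown libraries, a fall of 0.94 on the log2 scale. The knockdown therefore left residual ZMYND8 mRNA in both of its libraries. Overexpression raised ZMYND8 58.3-fold.

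All 10 genes were higher in the ZMYND8 overexpression libraries than in the parental ones, from 2.24-fold for MAP2 to 25.3-fold for NEFL. All 10 passed the test as higher, where 31.7% of all genes tested did. These groups also differ in vector and antibiotic selection, which cannot be told apart from ZMYND8 itself. The KD control libraries, which carry no ZMYND8 transgene by their labels, held levels of most of these genes near or above those of the overexpression libraries. Knockdown of ZMYND8 lowered the neurofilament genes NEFL, NEFM and NEFH by 1.21-fold to 1.31-fold, and the other members did not pass the test. The NEFM call was lost with DESeq2, without the filter on low counts and without either of 2 libraries, and 2 to 6 members passed as lower when single libraries were left out. Summed over the 10 genes, the parental libraries held 139.2 and 139.0 CPM (counts scaled to the effective library size). The overexpression libraries held 1066 and 1162 CPM, the KD control libraries 1403 and 1543 CPM, and the knockdown libraries 1153 and 1362 CPM. Since these are bulk libraries, more cells of a type and more RNA per cell cannot be told apart.

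**Figure D1:**
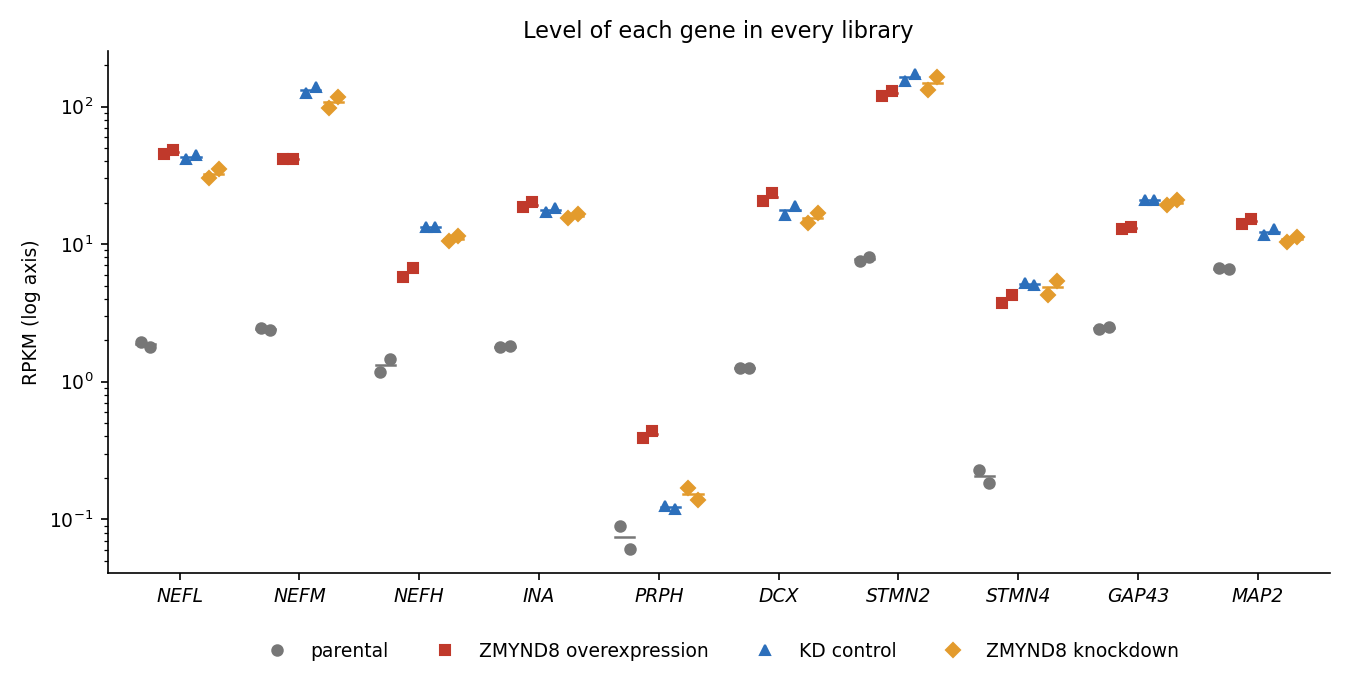
RPKM on a log axis for each of the 10 genes; points are the 2 libraries of each of the 4 groups and short lines are group means. For every gene the 2 parental libraries lie below all 6 other libraries, and PRPH lies lowest of the genes in the overexpression libraries, at 0.391 and 0.435 RPKM.

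NEFL, the light chain that the other chains need to assemble, stood at 1.96 and 1.78 RPKM in the parental libraries and at 45.3 and 48.4 RPKM in the overexpression libraries. The KD control libraries held 41.4 and 44.4 RPKM and the knockdown libraries 30.2 and 35.0 RPKM. The parental libraries stood far below the rest, and no groups overlapped. Overexpression against parental gave a log2 fold change of 4.66 ± 0.069 (SE, n = 2 against 2, adjusted p = 1.94e-11), which carried NEFL from rank 9852 to rank 535 of 19919 protein-coding genes by mean RPKM. The gene lies on the minus strand of chromosome 8 at 24950955 to 24956721 (hg38).

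NEFM, the medium chain, stood at 2.47 and 2.39 RPKM in the parental libraries and at 41.5 and 41.6 RPKM in the overexpression libraries. It reached 126 and 139 RPKM in the KD control libraries and 97.1 and 118 RPKM in the knockdown libraries. The order was parental, overexpression, knockdown and KD control, with no overlap between neighbours. The log2 fold change with overexpression was 4.11 ± 0.058 (adjusted p = 1.72e-11). NEFM sits on the plus strand of chromosome 8 at 24913758 to 24919098, with 31856 bases between it and NEFL. A gene model on the opposite strand covers 26.4% of its exon bases.

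NEFH, the heavy chain with the long phosphorylated tail of mature axons, held 1.17 and 1.45 RPKM in the parental libraries and 5.78 and 6.68 RPKM in the overexpression libraries. It held 13.3 and 13.2 RPKM in the KD control libraries and 10.6 and 11.4 RPKM in the knockdown libraries. The groups followed the order seen for NEFM, again without overlap. With overexpression the log2 fold change was 2.25 ± 0.12 (adjusted p = 6.05e-08), the smallest of the neurofilament chains. A gene model on the opposite strand covers 9.04% of its exon bases. Of its distinct exonic 31-base words, 16.4% occur more than once in the genome, its own repeats included. How reads from such stretches were counted was not tested.

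INA, which joins neurofilaments in young and central neurons, held 1.77 and 1.81 RPKM in the parental libraries and 18.6 and 20.2 RPKM in the overexpression libraries. The KD control libraries held 17.0 and 18.2 RPKM and the knockdown libraries 15.4 and 16.6 RPKM. As for NEFL, overexpression was the highest group and parental the lowest. The log2 fold change with overexpression was 3.44 ± 0.073 (adjusted p = 9.30e-11). The neighbouring gene NT5C2, on the opposite strand, covers 13.9% of its exon bases.

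PRPH was scarce throughout. Its counts were 12 and 10 in parental cells, 67 and 61 with overexpression, 21 and 21 in the KD control and 28 and 23 in the knockdown. The parental libraries were lowest and the overexpression libraries highest, and no groups overlapped in RPKM. The log2 fold change with overexpression was 2.48 ± 0.31 (adjusted p = 4.99e-05), with the widest error of the 10 genes. An antisense gene model, TROAP-AS1, covers 73.4% of its exon bases and had 10 and 10 counts in the parental and 34 and 29 counts in the overexpression libraries. The strand setting of the counting is not given in the sources used here, so the reads of PRPH and TROAP-AS1 may be mixed or partly dropped.

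The make-up of the neuronal filament mRNAs differed between the groups beside their amount. As a share of the summed RPKM of NEFL, NEFM, NEFH, INA and PRPH, NEFM made up 63.7% and 64.7% with KD control and 63.2% and 65.2% with knockdown. Its share was 33.1% and 31.9% in parental cells, against 37.2% and 35.5% with overexpression. NEFL made up 40.6% and 41.2% in the overexpression libraries, against 26.3% and 23.7% in the parental, 20.9% and 20.6% in the KD control and 19.7% and 19.3% in the knockdown libraries. The ratio of NEFM to NEFL in RPKM was thus 0.916 and 0.860 in the overexpression libraries, 1.26 and 1.35 in the parental libraries and 3.05 to 3.38 in the knockdown experiment. These shares and ratios are given as a description, without a test.

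**Figure D2:**
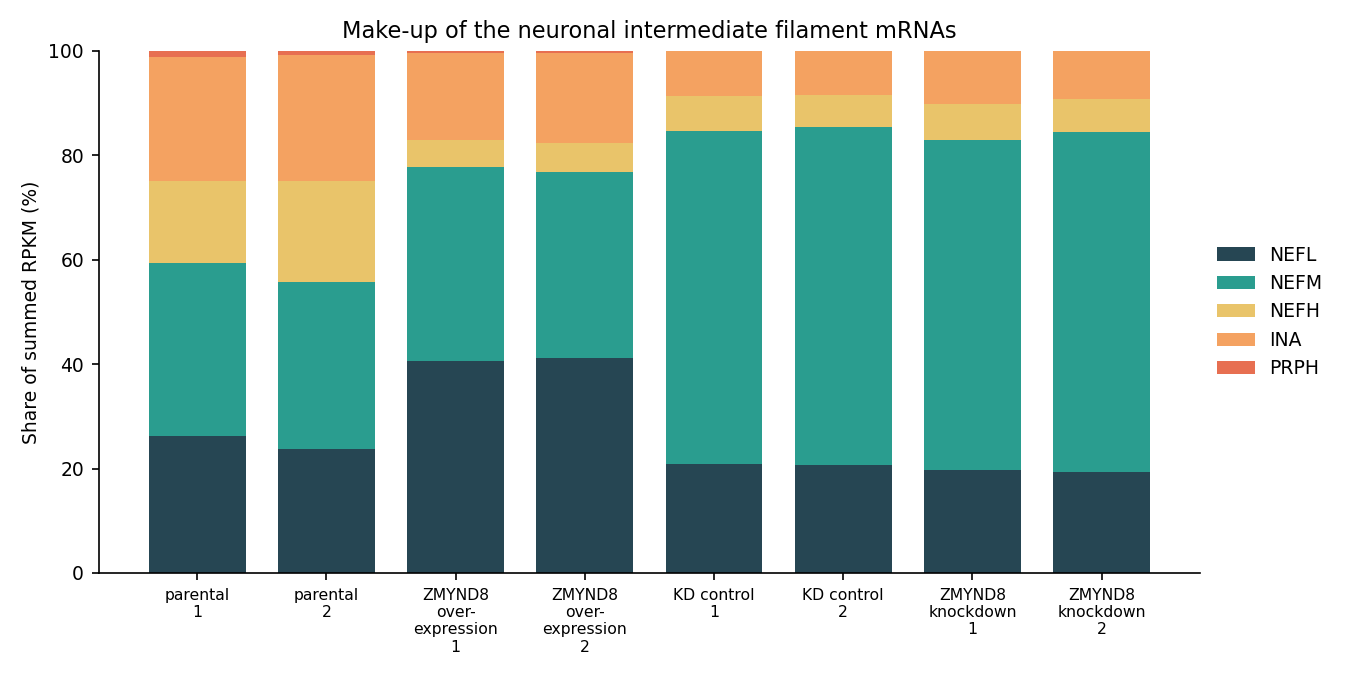
Share in percent of the summed RPKM of the 5 neuronal intermediate filament genes, 1 stacked bar per library. NEFM fills 63.2% to 65.2% of each bar in the knockdown experiment and 31.9% to 37.2% in the overexpression experiment, and NEFL is widest in the 2 overexpression libraries.

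DCX, a microtubule-binding protein of migrating young neurons, held 1.26 and 1.25 RPKM in the parental libraries and 20.4 and 23.5 RPKM in the overexpression libraries. The KD control libraries held 16.2 and 19.1 RPKM and the knockdown libraries 14.3 and 16.9 RPKM. The knockdown libraries overlapped the KD control libraries, and the overexpression libraries lay above both. The log2 fold change with overexpression was 4.14 ± 0.078 (adjusted p = 5.13e-11). DCX lies on the minus strand of chromosome X at 111293779 to 111412429, and none of its exons overlaps another gene model.

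STMN2, a stathmin of growth cones, had the highest mean RPKM of the 10 genes in every group. Parental cells had 7.51 and 8.0 RPKM, overexpression 118 and 131 RPKM, the KD control 154 and 171 RPKM and the knockdown 132 and 163 RPKM. Parental stood far below, and knockdown overlapped KD control. By mean RPKM, STMN2 moved from rank 5648 of protein-coding genes in parental cells to rank 121 in overexpression, and it held rank 121 in the KD control as well. Its log2 fold change with overexpression was 4.01 ± 0.070 (adjusted p = 3.27e-11).

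STMN4 followed STMN2 at a much lower level. It held 0.229 and 0.182 RPKM in the parental libraries, from 32 and 31 counts, and 3.72 and 4.24 RPKM in the overexpression libraries. The KD control libraries held 5.20 and 5.06 RPKM and the knockdown libraries 4.25 and 5.44 RPKM. The order of the groups was that of STMN2, with the same overlap between knockdown and KD control. Its log2 fold change with overexpression was 4.29 ± 0.16 (adjusted p = 4.39e-09).

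MAP2, a microtubule-associated protein of dendrites, changed least with overexpression. Parental cells had 6.65 and 6.54 RPKM, overexpression 14.1 and 15.3 RPKM, the KD control 11.7 and 12.9 RPKM and the knockdown 10.4 and 11.3 RPKM. No groups overlapped, but all lay within a narrow range. The log2 fold change with overexpression was 1.16 ± 0.055 (adjusted p = 2.43e-08).

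GAP43 held 2.41 and 2.50 RPKM in the parental libraries and 12.9 and 13.3 RPKM in the overexpression libraries. It held 20.8 and 21.1 RPKM in the KD control libraries and 19.2 and 20.9 RPKM in the knockdown libraries. Thus the growth cone gene was higher in both groups of the knockdown experiment than in overexpression, as were NEFM, NEFH, STMN2 and STMN4. The log2 fold change with overexpression was 2.42 ± 0.088 (adjusted p = 3.44e-09).

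The windows around the start sites of 3 members are printed, those with 1 window each among the 5 genes described next. The choice did not use their expression. Windows of 5 of the 10 genes were taken from the RefSeq promoter table used (GRCh38.p14), which gives 250 bases before to 50 bases after each start. Windows of the other members are not described here, which does not mean that all of them lack an entry. Among the 5 genes, INA, PRPH and GAP43 have 1 window each. All are on the plus strand, INA at chr10:103276888-103277187, PRPH at chr12:49294897-49295196 and GAP43 at chr3:115623260-115623559. Capitals mark matches on either strand to TATAAA (the core promoter element near many start sites), GGGCGG (bound by Sp factors), CCAAT (bound by the factor NF-Y), CAGCTG (an E-box of neurogenic factors) or AGGTCA (a half-site of retinoic acid receptors).
INA: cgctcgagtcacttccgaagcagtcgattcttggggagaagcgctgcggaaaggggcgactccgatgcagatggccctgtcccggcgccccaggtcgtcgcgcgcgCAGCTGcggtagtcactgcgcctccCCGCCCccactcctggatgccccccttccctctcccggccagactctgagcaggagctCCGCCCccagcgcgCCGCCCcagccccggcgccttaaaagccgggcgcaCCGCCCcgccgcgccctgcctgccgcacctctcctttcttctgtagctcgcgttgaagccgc
PRPH: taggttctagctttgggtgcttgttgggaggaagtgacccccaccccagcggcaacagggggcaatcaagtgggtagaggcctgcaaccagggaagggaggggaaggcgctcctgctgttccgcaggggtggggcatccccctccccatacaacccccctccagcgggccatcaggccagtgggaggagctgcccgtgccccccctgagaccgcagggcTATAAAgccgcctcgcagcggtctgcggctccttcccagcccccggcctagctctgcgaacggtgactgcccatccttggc
GAP43: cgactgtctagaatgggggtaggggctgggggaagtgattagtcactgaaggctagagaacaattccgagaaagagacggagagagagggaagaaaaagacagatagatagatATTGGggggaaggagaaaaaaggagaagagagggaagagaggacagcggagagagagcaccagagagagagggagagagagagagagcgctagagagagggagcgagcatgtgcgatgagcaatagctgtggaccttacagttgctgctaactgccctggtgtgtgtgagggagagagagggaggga
INA has 4 matches to GGGCGG, read here as CCGCCC on the printed strand, and 1 to CAGCTG. PRPH has 1 TATAAA and GAP43 has 1 CCAAT, on the other strand. Among all 35116 windows of the table, 45.0% hold GGGCGG, 17.9% CAGCTG, 11.5% TATAAA, 34.6% CCAAT and 13.8% AGGTCA. No motif was common to the 3 windows, which is a description of these letters and says nothing on which factors bind there. DCX and MAP2 have 3 partly overlapping windows each, of which 1 holds TATAAA and 2 hold CCAAT for DCX, and 1 holds CCAAT for MAP2.

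In overexpression against parental, 10 of 10 genes passed the test (adjusted p under 0.05) in the higher direction, where 31.7% of the 20835 genes tested did. All 10 also met the stricter call, which also asked for a change of 1 or more on the log2 scale and for a normalized count over 20 on average, and which 11.8% of all genes met in that direction. The median log2 fold change was 3.73 over the 10 genes and 0.031 over all genes tested. Groups did not overlap for any of the 10 genes. Every member stayed higher, and past the threshold, under each alternative tried.

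In knockdown against KD control, NEFL had a log2 fold change of -0.39 ± 0.069 (adjusted p = 0.00217), NEFH of -0.27 ± 0.058 (adjusted p = 0.00631) and NEFM of -0.30 ± 0.084 (adjusted p = 0.0253). These 3 neurofilament chains were the members that passed, all of them lower, where 10.8% of 19789 genes passed in the lower direction. The other 7 did not pass. INA had a value of -0.13 ± 0.061 (adjusted p = 0.148), MAP2 of -0.18 ± 0.062 (adjusted p = 0.0632) and DCX of -0.17 ± 0.088 (adjusted p = 0.187). STMN2 had -0.14 ± 0.088 (adjusted p = 0.304), STMN4 -0.08 ± 0.11 (adjusted p = 0.648) and GAP43 -0.06 ± 0.063 (adjusted p = 0.544). PRPH had a positive value of 0.33 ± 0.32 (adjusted p = 0.514) on few counts. The median was -0.15 over the 10 genes and -0.0084 over all genes tested, and no member met the stricter call.

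The NEFM call depended on single libraries. Without knockdown replicate 1, its log2 fold change was -0.17 (adjusted p = 0.0903), and without KD control replicate 2 it was -0.23 (adjusted p = 0.189). It was also lost with DESeq2 (adjusted p = 0.160) and without the filter on low counts (adjusted p = 0.135). The number of members that passed as lower was 5 without KD control replicate 1, 6 without knockdown replicate 2 and 2 without either of the other libraries in turn. The calls of NEFL and NEFH held under every alternative.

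Most of the members were also higher in the KD control than in parental cells, although neither group was given a ZMYND8 transgene by its labels. NEFM had the largest log2 fold change, 5.78 ± 0.075 (adjusted p = 5.68e-12), followed by STMN4 at 4.66 ± 0.14, NEFL at 4.53 ± 0.071 and STMN2 at 4.40 ± 0.072. DCX had 3.82 ± 0.085, NEFH 3.34 ± 0.090, INA 3.30 ± 0.073 and GAP43 3.10 ± 0.078. MAP2 had 0.90 ± 0.057 (adjusted p = 1.34e-07), below the size needed for the stricter call. PRPH, at 0.73 ± 0.40 (adjusted p = 0.122), did not pass. In all, 9 of 10 passed as higher, where 33.6% of 20385 genes did, and 8 met the stricter call, where 10.8% did. The median was 3.58 over the 10 genes and -0.0002 over all genes tested.

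This comparison and the one with overexpression share the parental libraries, and it shares the KD control libraries with the knockdown comparison. By their labels, the KD control and parental groups differ in Dox and in the knockdown control itself, which cannot be told apart. Mitochondrial genes took 2.92% to 3.41% of the counts in the libraries of the knockdown experiment and 0.110% to 0.168% in those of the overexpression experiment. The part of this in the members' values was not tested.

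**Figure D3:**
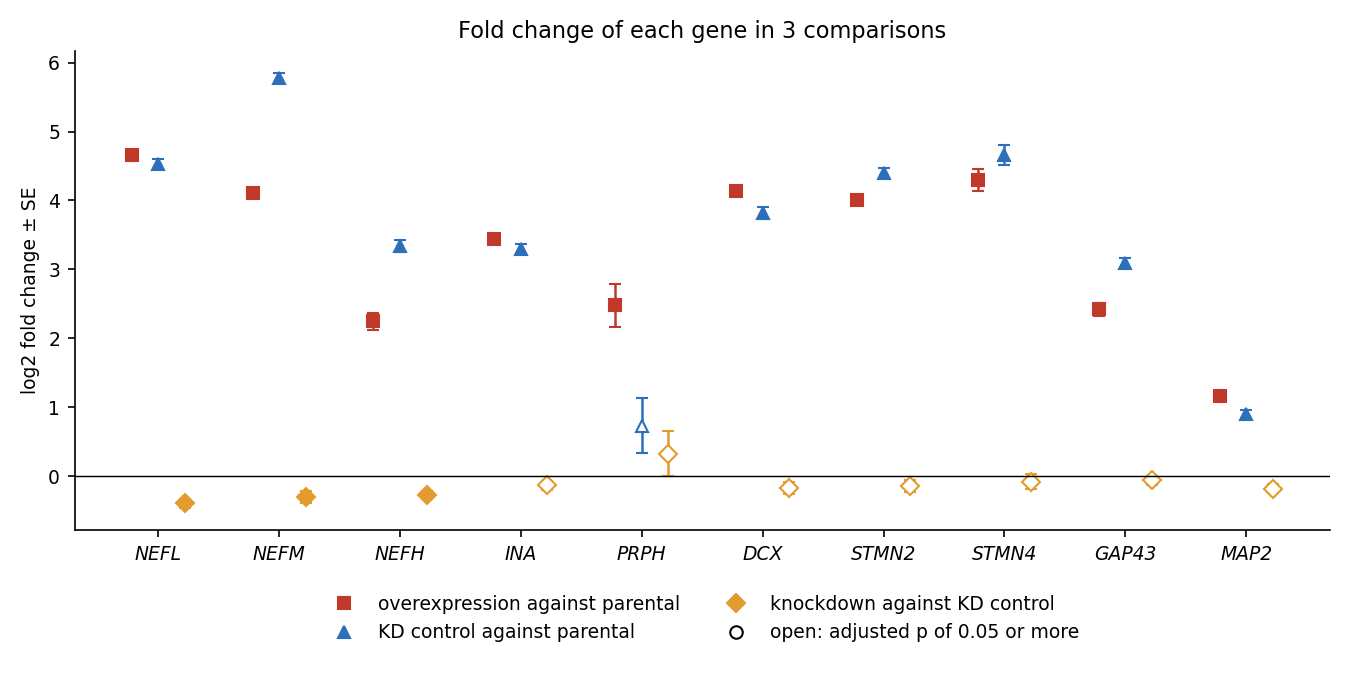
Log2 fold change with its standard error for each gene in overexpression against parental, KD control against parental and knockdown against KD control. Open symbols did not pass (adjusted p of 0.05 or more); the values reach 5.78 for NEFM in the comparison of the controls and stay between -0.39 and 0.33 in the knockdown.

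The signed effects of overexpression and knockdown differed for every member when the difference was tested itself. This test does not ask which of the effects is larger in size, and a negative knockdown value adds to the difference. The overexpression effect minus the knockdown effect ranged from 1.33 ± 0.088 for MAP2 (adjusted p = 9.08e-09) to 5.05 ± 0.11 for NEFL (adjusted p = 1.66e-13) on the log2 scale. PRPH had the largest adjusted p, 0.00105, with a difference of 2.15 ± 0.45. All 10 passed in the higher direction, where 24.6% of 22619 genes did, with a median of 3.85 against 0.057 over all genes. Each effect was measured against its own control, and the controls differ as given above.

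Across the 8 libraries, the log2 CPM of the members rose and fell together, the parental libraries being low. NEFL was most like INA (Pearson r = 0.999), STMN2 most like STMN4 (r = 0.999) and NEFM most like GAP43 (r = 0.998). DCX was most like INA (r = 0.999), and NEFH most like NEFM (r = 0.996). PRPH was the least like the others, with r from 0.302 with NEFH to 0.787 with MAP2. The libraries share groups and, within a group, their culture conditions, so these values describe the contrast of the groups rather than 8 independent points.

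Other cytoskeletal lists, set by known function but with earlier results of these data known, differed in direction with overexpression. By number of genes, growth cone genes (17 of 22) and other microtubule regulators (18 of 26) mostly rose, where 31.7% of all genes did, and other intermediate filaments mostly fell. The mean summed CPM of growth cone genes was 2249.8 in parental and 2322.6 in overexpression libraries. That of the other microtubule regulators was 5332.1 in parental and 4534.5 in overexpression libraries. Between the controls, 15 of 20 growth cone genes, 16 of 25 other microtubule regulators and 12 of 16 axonal motor proteins passed as higher in the KD control. In the same order, 1, 4 and 1 passed as lower. Of 11 other intermediate filaments, 9 passed as lower there and 1 as higher. Over all genes, 33.6% passed as higher and 36.2% as lower between the controls. Among 11 other intermediate filament genes tested in overexpression against parental, none passed as higher and 9 passed as lower. Their median was -0.91, and 29.1% of all genes passed as lower. VIM (vimentin, the filament of mesenchymal cells and neural precursors) fell by 0.91 ± 0.060 on the log2 scale (adjusted p = 3.44e-07), with 422 and 430 RPKM in the parental and 238 and 213 RPKM in the overexpression libraries. NES (nestin) fell by 0.64 ± 0.047, LMNA (lamins A and C) by 1.22 ± 0.060 and KRT8 (a keratin) by 1.81 ± 0.067. Of the distinct exonic 31-base words of KRT8, 27.7% recur in the genome, and gene models on the other strand cover 24.3% of the exon bases of VIM. In the knockdown, 4 of 10 rose, where 13.4% of all genes passed as higher, and 1 fell. VIM rose by 0.47 ± 0.057 (adjusted p = 0.000213) and KRT8 by 0.44 ± 0.087 (adjusted p = 0.00416), while LMNA fell by 0.23 ± 0.069 (adjusted p = 0.0354). The call of KRT8 was lost without KD control replicate 2 (0.34, adjusted p = 0.0582), and that of LMNA without KD control replicate 1 (-0.15, adjusted p = 0.219) or knockdown replicate 2 (-0.15, adjusted p = 0.154).

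Tubulins, the subunits of microtubules, were mixed. With overexpression 6 of 12 rose and 3 fell, with a median of 0.092, where 31.7% of all genes rose and 29.1% fell. TUBB4A rose by 3.46 ± 0.12 and TUBB2B by 1.27 ± 0.063, whereas TUBA1C fell by 1.16 ± 0.065. The neuronal tubulins TUBB3 and TUBA1A had log2 fold changes of 0.69 ± 0.15 (adjusted p = 0.00258) and 0.22 ± 0.053 (adjusted p = 0.00403). Tubulin genes resemble each other: 53.9% of the exonic 31-base words of TUBB2B, 35.9% of TUBA1A, 29.3% of TUBA1C, 17.3% of TUBB4A and 13.4% of TUBB3 recur in the genome, and 35.8% of TUBB3's exon bases overlap another gene model on its strand. The TUBA1A call was lost without parental replicate 1 (0.15, adjusted p = 0.0706). In the knockdown no tubulin rose and 4 of 12 fell, against 13.4% and 10.8% of all genes. TUBA1A fell by 0.30 ± 0.051 (adjusted p = 0.00169).

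Of 26 other microtubule regulators, 18 rose and 5 fell with overexpression, against 31.7% and 29.1% of all genes, with a median of 0.40. CAMSAP3, which caps microtubule minus ends, rose by 5.12 ± 0.21, from 13 and 37 counts in the parental to 936 and 847 counts in the overexpression libraries. The stathmins STMN3 and STMN1 rose by 1.73 ± 0.057 and 0.47 ± 0.048, and 29.0% of the exonic 31-base words of STMN3 recur in the genome. DCLK1, a relative of DCX, rose by 0.16 ± 0.055 (adjusted p = 0.0304), a call lost without parental replicate 1 (0.13), without parental replicate 2 (0.17), without overexpression replicate 2 (0.13) and with DESeq2 (0.14, adjusted p = 0.203). MAP1B, an axonal microtubule-associated protein, fell by 1.13 ± 0.065 (adjusted p = 1.16e-07), from 191 and 180 RPKM to 89.4 and 78.9 RPKM, and DPYSL3 fell by 0.63 ± 0.056. So MAP1B and MAP2, both structural microtubule-associated proteins, changed in opposite directions. MAPT (tau) had between 0 and 18 counts per library and a value of 1.52 ± 0.79 (adjusted p = 0.124), and 98.8% of its exonic 31-base words also lie on alternate contigs of hg38, so its level here may be affected by the choice of reference. Without parental replicate 2, whose 9 counts are the group's total, the MAPT value was 6.69 against a group at 0 and passed (adjusted p = 0.00752), a fitted value that depends on the prior count. In the knockdown, 4 of 25 rose and 5 fell, against 13.4% and 10.8% of all genes. STMN3 fell by 0.37 ± 0.053 (adjusted p = 0.000599), while MAP1B rose by 0.24 ± 0.062 (adjusted p = 0.0173) and DPYSL3 by 0.21 ± 0.054 (adjusted p = 0.0164). Without KD control replicate 1, neither MAP1B (0.18, adjusted p = 0.155) nor DPYSL3 (0.17, adjusted p = 0.115) passed, and DPYSL3 was also lost without knockdown replicate 2 (0.17, adjusted p = 0.0850).

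Of 16 axonal motor proteins, 8 rose and 3 fell with overexpression, against 31.7% and 29.1% of all genes. KIF1A, the kinesin that carries synaptic vesicle precursors, rose by 4.91 ± 0.070 (adjusted p = 1.72e-11), from 0.425 and 0.471 RPKM to 13.0 and 13.8 RPKM, and KIF5C rose by 2.27 ± 0.057, with 81.6% of its exonic 31-base words also on alternate contigs. DYNC1H1, the dynein heavy chain, fell by 0.33 ± 0.047. KIF1A fell by 0.40 ± 0.054 in the knockdown (adjusted p = 0.000440), where 3 of the 16 rose and 2 fell, against 13.4% and 10.8% of all genes.

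Growth cone and neurite growth genes had the highest median of the cytoskeletal lists with overexpression, 1.06, and 17 of 22 rose and 3 fell, against 31.7% and 29.1% of all genes. L1CAM, an adhesion molecule of growing axons, rose by 4.28 ± 0.080 (adjusted p = 4.70e-11), from 0.812 and 0.889 RPKM in the parental to 15.6 and 17.4 RPKM in the overexpression libraries. The KD control libraries held 11.8 and 11.8 RPKM of it. The adhesion gene CNTN2 rose by 5.08 ± 0.21 and BASP1, a relative of GAP43 in function, by 1.09 ± 0.076. MARCKS fell by 0.74 ± 0.059 and ENAH, an actin regulator, by 0.74 ± 0.062. DBN1 (drebrin) had a value of -0.01 ± 0.047 (adjusted p = 0.838). The knockdown counts, 2 of 20 higher and 3 lower, were near the 13.4% and 10.8% of all genes, MARCKS rising by 0.26 ± 0.055 (adjusted p = 0.00559) and ENAH falling by 0.32 ± 0.050 (adjusted p = 0.00114). The MARCKS call was lost without KD control replicate 2 (0.23, adjusted p = 0.0640).

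Of 9 genes of the spectrin and ankyrin scaffold under the axon membrane, 3 rose and 5 fell with overexpression, the first near the 31.7% of all genes that rose and the second above the 29.1% that fell. EPB41L3 rose by 4.30 ± 0.18, and ANK3, the ankyrin of the axon initial segment, fell by 1.83 ± 0.065. ANK3 also fell in the knockdown, by 0.27 ± 0.070 (adjusted p = 0.0184), where 2 rose and 3 fell, against 13.4% and 10.8% of all genes. That call was lost without KD control replicate 2 (-0.21, adjusted p = 0.153).

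**Figure D4:**
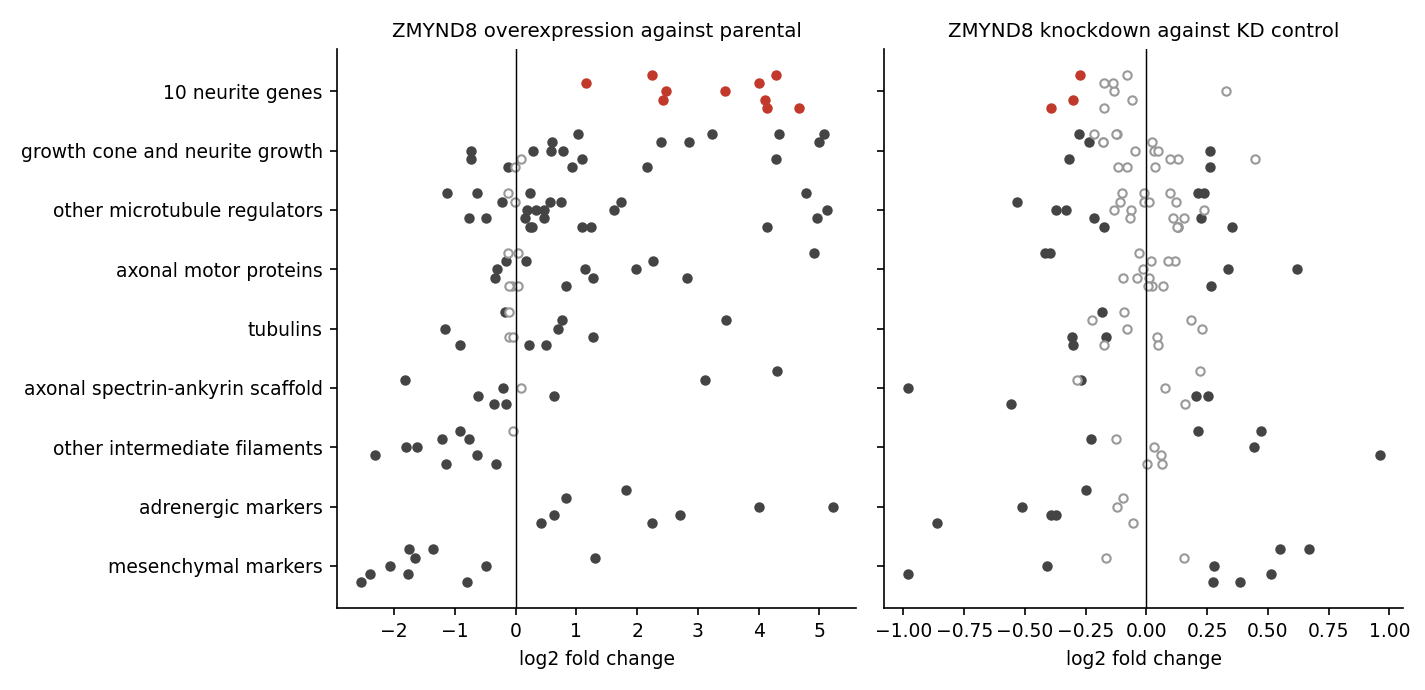
Log2 fold change of single genes in each list, with overexpression against parental on the left and knockdown against KD control on the right; the axes differ in scale. Filled points passed the test, and genes with a mean normalized count of 20 or less, or with 3 or fewer counts in a group, are not drawn. All 10 neurite genes lie to the right of 0 on the left, from 1.16 to 4.66.

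Neuroblastoma lines mix cells of an adrenergic, neuron-like state and of a mesenchymal state, and markers of both also changed with overexpression and with knockdown. The adrenergic list passed as higher for 8 of 8 genes tested with overexpression, where 31.7% of all genes did, with a median of 2.03. Of the 10 genes of the mesenchymal list, 9 fell, where 29.1% of all genes did, and 1 rose, with a median of -1.70, CD44 falling by 2.55 ± 0.099 and TWIST1 rising by 1.31 ± 0.048. Summed over its list, the adrenergic level was 332 to 335 CPM in the parental, 1145 to 1201 CPM in the overexpression, 765 to 804 CPM in the KD control and 595 to 665 CPM in the knockdown libraries. The mesenchymal level was 10348 to 11097 CPM in the parental, 3080 to 3109 CPM in the overexpression, 4918 to 4991 CPM in the KD control and 6014 to 6334 CPM in the knockdown libraries. In the knockdown 5 of 8 adrenergic genes fell and none rose, while 6 of 10 mesenchymal genes rose and 2 fell, where 13.4% of all genes rose and 10.8% fell. CD44 rose by 0.39 ± 0.062 (adjusted p = 0.00125). The lowest log2 fold change of the mesenchymal list in the knockdown was that of PRRX1, -0.98, and the highest that of FOSL1, 0.67. Between the controls, 8 of 8 adrenergic genes were higher in the KD control, but the mesenchymal list was split, with 5 higher and 5 lower and a median of -0.11, where 33.6% of all genes passed as higher and 36.2% as lower. At most 1 adrenergic gene was at 0 in any library, TH (tyrosine hydroxylase) with 0 to 5 counts, and no mesenchymal gene was. The part of these cell states in the members' values was not tested.

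**Figure D5:**
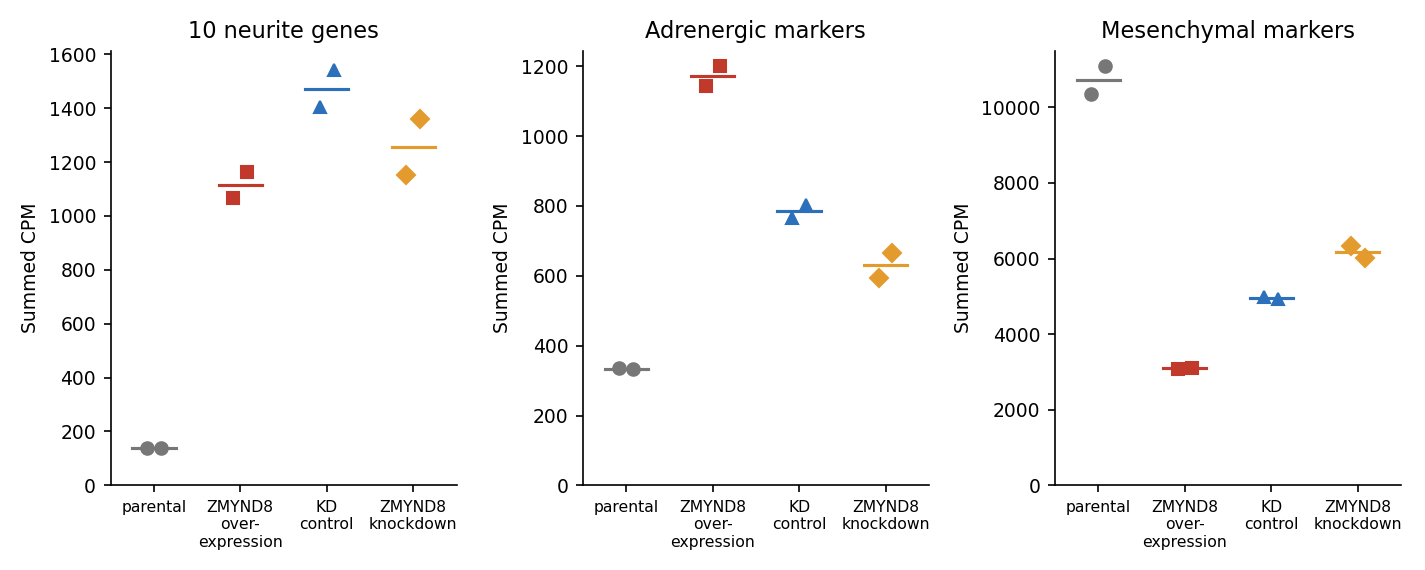
Summed CPM per library (points, 2 per group, with the group mean as a line) of the 10 neurite genes, the adrenergic markers and the mesenchymal markers; each axis starts at 0. The parental libraries are lowest for the neurite genes, 139.0 and 139.2 CPM, and for the adrenergic markers, and highest for the mesenchymal markers.

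Schwann cell markers, the other cell type such lines can hold, summed to 2.28 to 9.13 CPM, with SOX10 at 0 or 1 count in every library. Of 4 tested, 2 rose with overexpression, where 31.7% of all genes did, among them ERBB3 by 2.58 ± 0.23, and none passed in the knockdown. Of 8 proliferation genes, 1 rose (MCM2, by 0.24 ± 0.062, lost without parental replicate 1 at 0.20, adjusted p = 0.0551) and 5 fell with overexpression, CENPF by 0.75 ± 0.073, where 29.1% of all genes fell. In the knockdown 2 of them fell, where 10.8% of all genes did. Of 8 retinoic acid targets, 4 rose and 4 fell, against 31.7% and 29.1% of all genes. CYP26A1, the enzyme that clears retinoic acid, rose by 4.90 ± 0.061 (adjusted p = 1.72e-11), and TGM2 fell by 2.61 ± 0.054. Another gene model covers 25.3% of the exon bases of CYP26A1 on the same strand. In the knockdown 2 of these targets rose and 4 fell, against 13.4% and 10.8%, TGM2 falling by 0.25 ± 0.072 (adjusted p = 0.0287). The TGM2 call was lost without KD control replicate 1 (-0.18, adjusted p = 0.191) or knockdown replicate 2 (-0.17, adjusted p = 0.148).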

How the data were processed

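The deposited table holds raw counts of reads per gene, made by the authors with rRNA-depleted total RNA, HISAT2 alignment to hg38 and, per the methods, GENCODE 28 gene models after trimming at a Phred score of 25. The strand setting is not given in the sources used here. Of 60662 lines, 3 of a split gene were left out, and symbols came from GENCODE 44. RPKM used the table's exon lengths and effective library sizes. Each comparison was fitted with edgeR 4.0.16 (R 4.3.3, limma 3.58.1) by the quasi-likelihood F test, two-sided, with TMM scaling, filterByExpr and Benjamini-Hochberg adjustment over all genes tested. A gene passed at an adjusted p under 0.05. Alternatives were DESeq2 1.42.0, RLE and upper quartile scaling, no filter on low counts, thinning to equal totals, removal of a length trend, a replicate block, 1 fit of all 8 libraries and leaving out each library. The code was tested on simulated counts.

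The members and lists were chosen with earlier results of these data known. The text names all 10 members in every comparison, a set of 20 other genes, and in each list the largest increase and decrease with overexpression among those that passed with a mean normalized count above 100. An item this rule names is not reported here. In the knockdown, values of these other genes are given where they passed, and the lowest and highest values of the mesenchymal list are added. Replicate numbers were not taken to pair libraries. Replicates of each group differed by more than sampling noise (chi-square per degree of freedom 5.52 to 7.97). The 31-base words were searched in hg38 on both strands.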

Additional observations from a re-analysis of the deposited data

How the results depend on the processing

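With 2 libraries per group, the standard errors of the members in the knockdown were 0.058 to 0.32 on the log2 scale, of the order of the values that did not pass. For the members, none of the 410 values recomputed in the other 3 comparisons changed its direction or its side of the threshold. In knockdown against KD control, 3 members passed as lower. With the replicate block it was 7, NEFL, NEFM, NEFH, INA, DCX, STMN2 and MAP2, with the replicate block and the length trend taken out it was 5, and with the thresholds on fold change and mean it was 0. Leaving out 1 library gave 2 to 6, with 5 without KD control replicate 1 and 6 without knockdown replicate 2. The libraries share only a number, and deviations of same-numbered libraries had correlations of -0.074 to 0.10 in the 3 comparisons of 2 groups. NEFM was also lost without the filter on low counts (adjusted p = 0.135), and MAP2 passed with upper quartile scaling (adjusted p = 0.0426) and with the length trend taken out (adjusted p = 0.0272). When 1 library was left out, STMN2 ranged from -0.29 to 0.0027 and STMN4 from -0.26 to 0.082, both turning positive without knockdown replicate 1. With overexpression, DBN1 turned to 0.065 with upper quartile scaling and ranged from -0.028 to 0.0077 when 1 library was left out. Upper quartile scaling moved the median of all genes from 0.031 to 0.109 with overexpression, so changes of that size depend on the scaling. The causes were not tested.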

Other observations

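Gene models opposite NEFL, NEFM, NEFH and PRPH, chosen after their values were seen, were highest in the overexpression libraries. ENSG00000272163, a gene model that overlaps NEFM on the other strand, had 47 and 60 counts in the parental and 1013 and 860 in the overexpression libraries. It had 95 and 104 counts in the KD control and 67 and 93 in the knockdown libraries. NEFM itself had 381 and 450 counts in the parental, 8125 and 6661 in the overexpression, 24116 and 28028 in the KD control and 18487 and 22365 in the knockdown libraries. The antisense counts were thus highest in a group where NEFM was not. ENSG00000282816, opposite NEFH, had 16 and 13 counts in the parental libraries, 76 and 86 in the overexpression libraries and 1 to 7 in those of the knockdown experiment. ENSG00000272157, opposite NEFL, had 0 and 1, 42 and 32, and 3 to 8 counts in the same order. TROAP-AS1, opposite PRPH, had 10 and 10, 34 and 29, and 3 to 7 counts. NT5C2, which overlaps 13.9% of the exon bases of INA, had 4402 and 5515 counts in the parental and 5495 and 4751 in the overexpression libraries. These values are given without a test.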
